A study of Schizosaccharomyces pombe with 6 samples.

Results

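New histone H3 was followed along chromosome II of fission yeast (Schizosaccharomyces pombe) cells that lack pob3, labelled pob3D, and compared with wild-type (WT) cells. The comparison rests on the 1 array titled for H3-FLAG ChIP in pob3D cells and on 3 WT arrays, out of 6 arrays in the series; the other mutants, amo1D and rix1E414K, have 1 array each. All of these cells, WT included, carried a plasmid, pINV1-H3.2-FLAG, from which a FLAG-tagged histone H3.2 is made when glucose is replaced by sucrose. Early log cultures in EMM-Leu medium with 8% glucose received 15 mM hydroxyurea (HU), an inhibitor of ribonucleotide reductase that holds cells in S phase, for 4 h. They were then moved to 4% sucrose without glucose, still with 15 mM HU, for 2 h, and fixed with 1% formaldehyde for 20 min. Tagged H3 that entered chromatin in that time was immunoprecipitated on fragments of 400 to 600 bp. It was hybridised in Cy5 against whole-cell extract DNA of cells of the same genotype in Cy3, so a high log2(Cy5/Cy3) marks DNA that took up much tagged H3 under an HU block, which the series calls nucleosome turnover. The cells also have their own untagged H3, the labels give no further allele, and pob3D is represented by 1 array.

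Pob3 and Spt16 form FACT, a histone chaperone that loosens nucleosomes ahead of RNA polymerase and helps put them back behind it. In fission yeast FACT also takes part in the silencing of heterochromatin, the repeat-rich DNA at centromeres, telomeres and the silent mating-type interval that carries histone H3 methylated at lysine 9. The central core of a centromere is different again: much of its H3 is replaced there by the centromeric histone Cnp1.

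Values are log2(Cy5/Cy3), with each array centred on its own median over all probes, so a shift of the whole genome cannot be seen. The array holds 43993 probes of 60 bases set 50 bases apart. They cover chromosome II from 1000011 to 3049820 and from 4491601 to 4541560, the left end of chromosome III, small patches at inv1, nmt1 and hrp1, and 41210 bases of a sequence without annotation, called the extra sequence here, much of which gave values like those of the mating-type region. Coordinates are those of the array, whose genome build is not given in the sources used here. On chromosome II its numbering ran 900 bases ahead of RefSeq's ASM294v3 before the tiling gap in the centromere and 1800 bases ahead after it. Median Cy5 intensities were 1056.5 to 1149.6 on the WT arrays and 1058.9 on the pob3D array, and 62 to 83 probes per array were not well above background. WT replicate 3 was hybridised on the same slide as pob3D, WT replicates 1 and 2 on another slide each. The slides differed: the SD over probes was 0.49, 0.46 and 0.41 for WT replicates 1, 2 and 3 and 0.37 for pob3D. Differences are therefore given both against the mean of the 3 WT arrays, with their SD, and against WT replicate 3. The genes pob3 and spt16 have no probes, so the deletion could not be checked from the extract DNA.

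The pob3D profile followed that of WT over most of the tiled DNA, and differed most in the places where WT took up little tagged H3. In windows of 200 bp, pob3D correlated with WT replicates 1, 2 and 3 at r = 0.75, 0.74 and 0.78, while the WT arrays correlated with each other at 0.82 to 0.87. These are correlations over neighbouring windows that share fragments, given as a description. In the 9877 windows away from the repeats, RNA gene clusters and patches, called the chromosome arms here, 97.8% lay within 0.5 of the WT mean. The middle 90% of those differences ran from -0.34 to 0.32 around a median of -0.027. The largest departures gathered in a few domains. Of 463 windows (4.21% of 11000) in which pob3D was above all 3 WT arrays and at least 0.5 above their mean, 90 lay in the rDNA repeats, 74 in the telomeric region, 72 in the extra sequence, 50 in the central core and 32 in the subtelomere. Another 29 lay in the silent mating-type interval, and 92 in the arms. Of 125 windows (1.14%) below all WT arrays and at least 0.5 below their mean, 124 lay in the arms. The arms hold 9877 of the 11000 windows, and 1.26% of them were lower, close to the share over all windows.

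No single window, gene or probe passed a test across the array. limma's moderated test with Benjamini-Hochberg adjustment called 0 of 11000 windows (0.0%), 0 of 963 genes (0.0%) and 0 of 43971 probes (0.0%), with smallest adjusted p of 0.333, 0.389 and 0.276. At an unadjusted p under 0.05 there were 657 windows higher and 411 lower, and 52 genes higher and 70 lower. The single pob3D array is assumed in this fit to vary like the WT arrays, whose spread it uses. Without WT replicate 3 the same fit called 107 windows higher and 15 lower, and without WT replicate 2 it called 8 genes higher and 1 lower. pob3D lay above all 3 WT arrays in 28.6% of windows, 28.2% of genes and 27.6% of probes, and below all 3 in 32.3%, 37.9% and 30.6%. Counts in the groups that follow are read beside these shares.

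Peaks and valleys of the WT profile were chosen on WT replicates 1 and 2 alone and then read on the slide they did not include. Valleys were shallower in pob3D than on the WT array of its slide, while peaks were equally high on both. The 550 valley windows, at or below -0.60, averaged -1.15, -1.14 and -0.93 in WT replicates 1, 2 and 3 and -0.54 in pob3D. pob3D was thus 0.39 above WT replicate 3, or 1.31-fold, and lay above it in 424 of 550 valleys (77.1%) against 49.1% of all windows. The 550 peak windows, at or above 0.66, averaged 0.99, 0.82 and 0.59 in WT and 0.59 in pob3D, which lay above WT replicate 3 in 272 of them (49.5%). The equality of peaks holds for that slide only: peaks chosen on WT replicates 2 and 3 were 0.30 lower in pob3D than in WT replicate 1, and those chosen on replicates 1 and 3 were 0.099 lower than in replicate 2. Valleys were shallower on each of these choices, by 0.48 against replicate 1 and 0.49 against replicate 2.

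The valleys did not behave as one group. The 30 valley windows in the rDNA repeats averaged -1.63 in WT replicate 3 and 0.044 in pob3D, a 3.18-fold difference. The 50 in the central core were 0.96 higher than in WT replicate 3, the 74 in the extra sequence 0.64, and the 27 in the mating-type interval 0.57 higher. pob3D was above WT replicate 3 in every one of the core, rDNA, mating-type and subtelomeric valleys and in 73 of 74 valleys of the extra sequence. Valleys within 500 bp of a tRNA gene were 0.38 higher, with 54 of 62 above WT replicate 3. The 107 valleys in the pericentromeric repeats were only 0.070 higher, with 47 above, and the 118 valleys of the arms were 0.089 higher, with 81 above. In the arms the slope of pob3D on the mean of WT replicates 1 and 2 was 0.65 against 0.67 for WT replicate 3, whereas over all windows it was 0.63 against 0.79. In the arms the valley run lowest in the mean of WT replicates 1 and 2, at sui1, stood at -1.23, -0.82 and -0.44 in WT and at -0.76 in pob3D, inside the WT range. The plot of levels by bin shows the same split between the lowest bin and the rest.

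**Figure D1:**
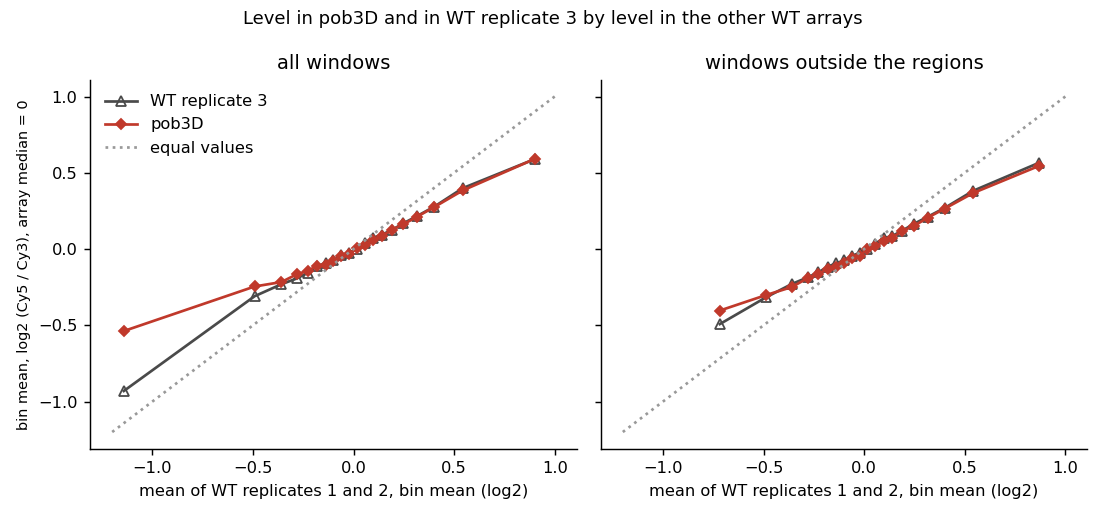
Mean log2(Cy5/Cy3) of pob3D and of WT replicate 3 in 20 bins of 550 windows ordered by the mean of WT replicates 1 and 2, for all windows and for the chromosome arms alone (windows outside the regions), with a dotted line of equal values. Over all windows pob3D lies 0.39 above WT replicate 3 in the lowest bin and within 0.064 of it in the others, while in the arms the lowest bin differs by 0.089.

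The central core of centromere 2, at 1621011 to 1631020 of chromosome II, had the lowest level of any tiled region in all arrays. It stood at -3.57, -3.31 and -3.63 in the WT arrays and at -2.67 in pob3D. The pob3D array was above the WT range in all 50 windows, by 0.83 over the WT mean (1.78-fold; WT SD 0.17, n = 3), with window differences from 0.59 to 1.10. The difference against WT replicate 3 was 0.96. The ChIP channel in the core was very dim, 4.00 below the array median on the log2 scale in WT, and there the value depends on how background is handled: it was 0.056 after normexp background correction and 0.48 without background subtraction. Quantile normalization, which gives all arrays the same lowest values, left -0.0008. Against the WT mean the difference lay in Cy5, 0.89 (SD 0.61), with 0.028 in the extract's Cy3 (SD 0.78), whereas against WT replicate 3 it was split into 0.40 in Cy5 and -0.58 in Cy3. The amo1D array stood at -2.84 in the core and the rix1E414K array at -3.86.

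The repeats on both sides of the core, where pericentromeric heterochromatin forms, differed little from the WT array of the same slide. Their 162 windows averaged -0.60, -1.24 and -0.61 in WT and -0.59 in pob3D. The difference of 0.23 from the WT mean was smaller than the WT SD of 0.37, and it was 0.022 against WT replicate 3. pob3D was above all WT arrays in 40 windows (24.7%, beside 28.6% of all windows). The amo1D and rix1E414K arrays stood at -0.31 and -0.93 here. Both sides were alike, with differences of 0.0046 left and 0.041 right of the core against WT replicate 3. Of these probes 78.2% have more than 1 match in the reference genome, so their signal averages over copies.

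The silent mating-type interval, at 2131011 to 2139020, carries the unexpressed copies of the mating-type genes between boundary elements. It averaged -0.55, -0.59 and -0.35 in the WT arrays and 0.12 in pob3D, above all 3 in 32 of 40 windows (80.0%). The difference was 0.61 from the WT mean (1.53-fold, SD 0.13) and 0.47 from WT replicate 3. Within the interval the difference from the WT mean lay in the windows that were low in WT replicates 1 and 2. The 32 windows below 0 in WT replicates 1 and 2 averaged -0.91, -0.94, -0.51 and, in pob3D, 0.0015, with pob3D above the WT range in 32 of 32. The 8 windows above 0, in the middle of the interval, averaged 0.89, 0.84, 0.31 and 0.59, and pob3D exceeded the WT range in 0 of them. The sorting used arrays that are also in that range, so these counts partly follow from the choice. Against WT replicate 3, which was not used in it, pob3D was 0.51 higher in the low windows and 0.28 higher in the high ones. In the flanks on either side the difference was 0.13. The difference in the interval lay more in the extract than in the ChIP channel: Cy3 differed from the WT mean by -0.48 (SD 0.18) and Cy5 0.17 higher (SD 0.27), and against WT replicate 3 Cy3 differed by -0.56 and Cy5 differed by -0.066. Its part in the result was not tested. The amo1D and rix1E414K arrays stood at -0.32 and -0.21 in the interval, also above all 3 WT arrays.

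The right end of chromosome II was higher in pob3D along most of its length. The subtelomere, at 4491601 to 4502410, averaged -0.46, -0.50 and -0.21 in WT and 0.15 in pob3D. That is 0.54 over the WT mean (1.46-fold, SD 0.16) and 0.36 over WT replicate 3, with 50 of 54 windows (92.6%) above all WT arrays. The telomeric region beyond it, to 4541560, averaged -0.16, -0.53, 0.029 and, in pob3D, 0.19, and 135 of its 196 windows (68.9%) were above. Its difference of 0.41 came with a WT SD of 0.28 and was 0.16 against WT replicate 3. In 5 consecutive stretches from the inside outwards, the difference from the WT mean was 0.53, 0.53, 0.49, 0.23 and 0.41, and from WT replicate 3 it was 0.32, 0.35, 0.19, -0.035 and 0.17. Against WT replicate 3 the first and second of these differences exceeded the WT SD of their stretch (0.18 in both), and those of the other 3 stretches did not (0.29, 0.38 and 0.28). Where both regions meet, a run of 13 windows around ftm7, 4501201 to 4503810, stood at -0.31, -0.36 and -0.34 in WT and at 0.39 in pob3D. In the subtelomere Cy5 was 0.63 over the WT mean (SD 0.47) and Cy3 0.051 (SD 0.32), but against WT replicate 3 Cy5 was 0.12 higher and Cy3 differed by -0.27. In the telomeric region Cy5 and Cy3 differed by 0.57 and 0.13 from the WT mean and by 0.047 and -0.14 from WT replicate 3. The amo1D and rix1E414K arrays stood at -0.44 and -0.40 in the subtelomere, inside the WT range. Most of these probes are repeated in the genome, 71.8% in the subtelomere and 81.2% in the telomeric region.

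**Figure D2:**
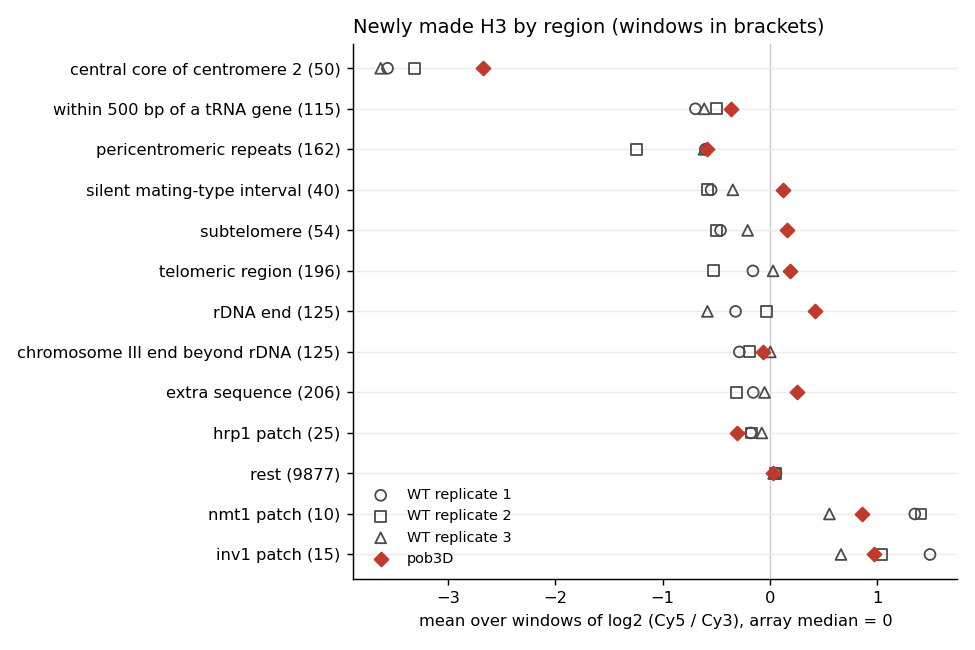
Mean log2(Cy5/Cy3) of each WT array and of pob3D in the annotated regions, patches and chromosome arms, one mark per array; the chromosome arms are marked rest. pob3D lies above all 3 WT arrays in the central core (-2.67), the mating-type interval (0.12), the subtelomere (0.15), the rDNA end (0.42) and the extra sequence (0.25), and inside the WT range at the inv1 and nmt1 patches.

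The left end of chromosome III holds copies of the ribosomal DNA repeat, which RNA polymerase I transcribes into the precursor of 18S, 5.8S and 28S rRNA. Here the rRNA genes themselves stood apart from the WT arrays. Their 62 windows averaged -0.67, -0.12 and -1.12 in WT and 0.36 in pob3D, which was above all WT arrays in 62 of 62. The difference from the WT mean was 0.99 (1.99-fold), with a WT SD of 0.50, and was 1.47 against WT replicate 3. The 63 windows of spacer between them averaged 0.021, 0.051, -0.058 and 0.49, with 34 above all WT arrays. Over the whole stretch of 25020 bases, 96 of 125 windows (76.8%) were above, while in the 125 windows beyond it 30 were above (24.0%) and the difference was 0.091. In the rRNA genes the ChIP channel was 0.87 over the WT mean (SD 0.21) and 0.67 over WT replicate 3, while the Cy3 difference was -0.16 (SD 0.61) and -0.84. The amo1D and rix1E414K arrays stood at -0.86 and -0.75 in these windows, inside the WT range. Nearly all of these probes, 99.6%, match several repeats, so the values average over the whole rDNA array.

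Gene by gene, all 7 genes for 18S, 5.8S and 28S rRNA were above the WT range, beside 28.2% of all genes, by 0.89 to 1.14 over the WT mean. These 7 are copies from the same repeat, each read by repeated probes alone, so they are not separate measurements. SPRRNA.43, an 18S gene at 10411 to 12270, stood at -0.87, -0.27 and -1.40 in WT and at 0.29 in pob3D. SPRRNA.44, SPRRNA.42 (both 18S) and SPRRNA.51 (5.8S) differed by 1.10, 1.11 and 1.11 with SEs of 0.42, 0.42 and 0.45. The 7 genes of 5S rRNA, which RNA polymerase III transcribes and which lie dispersed, gave differences of -0.083 to 0.14 with 1 above the WT range. With the probes of 1 match alone, the median difference over all rRNA genes was 0.028 in place of 0.52, since no 18S, 5.8S or 28S gene then had a value.

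**Figure D3:**
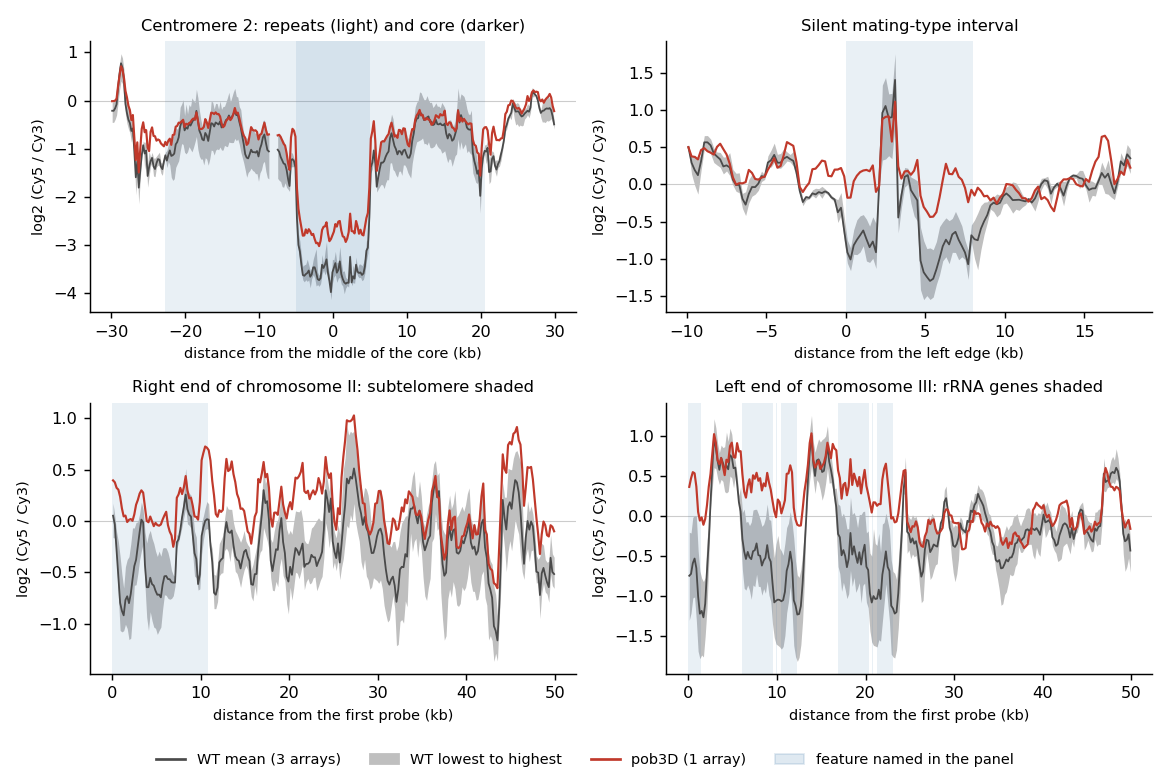
log2(Cy5/Cy3) in 200 bp windows of the WT arrays and pob3D along centromere 2, the mating-type interval, the right end of chromosome II and the left end of chromosome III, against distance in kb from the core's centre, the interval's left end or the first tiled base. The grey line is the mean of the 3 WT arrays, the band their lowest to highest value and the red line pob3D. The pob3D line lies above the band through the core, the low parts of the mating-type interval and the rRNA genes. It lies inside the band over most of the pericentromeric repeats.

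Transfer RNA genes, which RNA polymerase III transcribes and which often flank heterochromatin in fission yeast, were low in all arrays and less so in pob3D than in WT. The amo1D array was higher still over these genes, at a median of -0.58, and the rix1E414K array was at -1.44. The 24 measured genes had medians of -1.0, -0.83 and -1.06 in WT and -0.69 in pob3D. Differences from the WT mean ran from -0.080 to 0.55 with a median of 0.29, beside -0.030 for all 963 genes. pob3D was above all WT arrays at 18 of them (75.0%, beside 28.2% of all genes) and below all at 0. The largest differences were at the valine tRNA genes SPBTRNAVAL.05 (0.55), SPBTRNAVAL.06 (0.46) and SPBTRNAVAL.07 (0.43) and at SPBTRNALEU.07 (0.39), all close to the centromere and read by repeated probes. The tRNA cluster left of centromere 2, 1598411 to 1603220, was the lowest valley outside the centromere proper and stood at -1.24, -1.12 and -1.28 in WT and -0.78 in pob3D. The cluster on the right, 1646611 to 1649420, stood at -1.17, -1.07 and -1.25 against -0.72. On the amo1D array these clusters stood at -0.69 and -0.59. Of the 24 genes, 14 rest on repeated probes alone, and quantile normalization turned the median to -0.070. In all windows within 500 bp of a tRNA gene the difference of 0.24 (SD 0.098) lay in Cy3, -0.24, with Cy5 at 0.039, and against WT replicate 3 it was split into -0.15 and 0.13. The amo1D array stood at -0.36 in these windows, beside -0.36 for pob3D, and the rix1E414K array at -0.92.

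Small nucleolar RNA genes, whose products guide rRNA modification, gave 10 of 13 above the WT range and 1 below, with a median difference of 0.18. Of all 963 genes 28.2% were above and 37.9% below, with a median of -0.030. The extra sequence averaged -0.16, -0.31 and -0.051 in WT and 0.25 in pob3D, a difference of 0.42 (SD 0.13) with 134 of 206 windows above (65.0%). The difference was uneven along it: over successive stretches it was 0.13, 0.16, 0.078, 0.31, 0.78, 0.99, 0.28, 0.69 and 0.24. The run of smallest p in it, 22801 to 28610, stood at -0.84, -1.05 and -0.58 in WT and at 0.42 in pob3D. The other mutants were also above the WT arrays, at -0.41 (amo1D) and -0.23 (rix1E414K) in that run and at 0.075 and -0.0029 over the whole sequence. Cy3 differed in this sequence by -0.35 from the WT mean (SD 0.093) and by -0.42 from WT replicate 3, and Cy5 by 0.11 (SD 0.22) and -0.096. The run of smallest p lies in the stretches 20001 to 25010 and 25001 to 30010. In these, Cy3 differed from the WT mean by -0.74 (SD 0.23) and -0.68 (SD 0.21) and Cy5 by 0.078 (SD 0.29) and 0.34 (SD 0.51). Against WT replicate 3, Cy3 differed there by -0.80 and -0.82 and Cy5 by -0.10 and -0.032. Much of the extra sequence followed the mating-type region of chromosome II window by window. Its first 105 windows lay within 0.25 of the windows of chromosome II at 2111611 to 2132620 in all 4 arrays at 102 places, and its last 31 windows, from 35001 on, followed 2134411 to 2140620 at 28 places. These bounds were chosen after the values were seen, and whether the probes carry the same DNA was not tested. Those stretches held 12 and 20 of its 72 windows at least 0.5 higher and 9 and 21 of its 74 valleys, so they may count the same DNA again. The 70 windows between them, from 21001 to 35010, had no such match and averaged -0.40, -0.81 and -0.35 in WT and 0.15 in pob3D, with 43 above all WT arrays and 40 at least 0.5 higher. Base composition moved with the differences too: the difference from the WT mean correlated with the GC content of a window at r = -0.27 over 10794 windows and -0.25 in the arms. GC content averaged 28.2% in the core, 30.4% in the mating-type interval and 37.7% in the rDNA end, against 36.3% in the arms. The part of GC content and of the extract channel in these results was not tested.

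In the arms the departures were narrow and went both ways. Joining neighbouring windows past 0.5 gave 24 lower runs, all in the arms and none over 2010 bp, and 44 higher runs. Of the higher runs 21 lay in the arms or, in a few cases, at the tRNA clusters beside the centromere. At the level of genes, pob3D was at least 0.5 below the WT mean and below all WT arrays at 6 genes (0.623%) and at least 0.5 above at 13 (1.35%). The 6 lower genes were ubi4, lsd90, SPBC19C7.04C, knh4, ish1 and gpx1. These names and the 0.5 limit were chosen after the values were seen, except ubi4, ish1 and gpx1, which the naming rule also picks.

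The widest gap was at ubi4 (SPBC337.08C, minus strand, 1045161 to 1046520), which encodes polyubiquitin and is induced by stress. It stood at 1.27, 0.99 and 0.61 in the WT arrays and at -0.24 in pob3D, so a high peak in WT was below the array median in the mutant. The difference was -1.19 (SE 0.26, 0.437-fold; limma unadjusted p = 0.00561, adjusted p = 0.389), and -0.85 against WT replicate 3. The ChIP channel carried it, at -1.29 against -0.13 for Cy3. Of its probes 74.1% are repeated, and over the alternatives run the difference stayed between -1.37 and -0.85. The run of low windows reached from 1045211 to 1046820, past the gene's start into its promoter. On the amo1D and rix1E414K arrays ubi4 stood at 1.59 and 0.77.

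The stress genes of the chosen list did not all differ from WT alike. ish1, a nuclear envelope protein induced by stress, stood at 1.27, 0.85 and 0.50 in WT and 0.30 in pob3D, a difference of -0.57 that was -0.20 against WT replicate 3. gpx1, a glutathione peroxidase that removes hydrogen peroxide, stood at 0.82, 0.67 and 0.28 against 0.035, with Cy5 at -1.26 and Cy3 at -0.74. hsp16, a small heat shock protein, spread from -1.18 to 1.03 over the WT arrays and was at 0.43 in pob3D, inside that range. Of the 5 core stress genes measured, 3 were below all WT arrays and 0 above, with a median difference of -0.56, or -0.20 against WT replicate 3. The WT arrays themselves differed widely at these genes, with WT replicate 3 the lowest at all 4 named here.

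The promoters of these 4 stress genes are shown because the low run at ubi4 extends over its promoter and ish1, gpx1 and hsp16 differ from it in size or direction. Each line is the 250 bases before the gene's start on its own strand, all minus, read from RefSeq's ASM294v3, with matches to the stress element CRE (TGACGT, either strand, the site known for the Atf1 factor) or to the heat shock element HSE (GAANNTTC) in capitals. In ASM294v3 numbering they lie at chrII:1045593-1045842 (ubi4), chrII:2518714-2518963 (ish1), chrII:2789588-2789837 (gpx1) and chrII:2660993-2661242 (hsp16).
ubi4: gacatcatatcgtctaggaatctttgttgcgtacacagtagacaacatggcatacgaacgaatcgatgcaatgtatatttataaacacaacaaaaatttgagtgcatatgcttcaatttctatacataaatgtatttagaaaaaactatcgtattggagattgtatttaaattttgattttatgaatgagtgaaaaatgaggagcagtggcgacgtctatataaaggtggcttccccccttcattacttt
ish1: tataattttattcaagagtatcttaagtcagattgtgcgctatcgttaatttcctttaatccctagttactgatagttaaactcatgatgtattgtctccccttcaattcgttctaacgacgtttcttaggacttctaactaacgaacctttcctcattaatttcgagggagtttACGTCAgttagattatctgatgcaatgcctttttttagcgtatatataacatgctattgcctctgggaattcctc
gpx1: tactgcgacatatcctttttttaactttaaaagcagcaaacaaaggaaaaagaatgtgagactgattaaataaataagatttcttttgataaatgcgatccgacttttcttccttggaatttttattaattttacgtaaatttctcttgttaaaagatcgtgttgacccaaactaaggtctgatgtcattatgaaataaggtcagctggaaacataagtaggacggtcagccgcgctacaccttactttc
hsp16: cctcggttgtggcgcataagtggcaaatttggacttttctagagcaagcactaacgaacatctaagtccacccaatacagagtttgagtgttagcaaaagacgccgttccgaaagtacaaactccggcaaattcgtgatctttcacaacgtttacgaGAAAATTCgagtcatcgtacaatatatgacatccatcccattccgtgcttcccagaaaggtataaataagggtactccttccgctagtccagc
The ish1 window holds 1 CRE, 75 bases before the start, in DNA that also belongs to the neighbouring gene hba1. The hsp16 window holds 1 HSE, 93 bases before the start, and the ubi4 and gpx1 windows hold neither motif. Over 5112 promoters of this length, 5.52% hold the CRE and 9.49% the HSE; the matches are a description of the letters only.

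Other low genes were not on a fixed list. SPBC19C7.04C, an uncharacterized protein gene, stood at 0.99, 0.56 and 0.67 in WT and 0.033 in pob3D. knh4 stood at 0.97, 0.53 and 0.51 against 0.046, and lsd90 at 0.55, -0.047 and 0.67 against -0.31. In each of the 3 all WT arrays were above the pob3D array, by the least at lsd90, whose WT replicate 2 was itself low. On the amo1D and rix1E414K arrays SPBC19C7.04C stood at 0.27 and 0.31, both also below all WT arrays. There knh4 stood at 0.90 and 0.25, and lsd90 at 0.52 and 0.77. Among the genes with the smallest p, differences were smaller and the WT arrays closer together. sfc3, a subunit of the RNA polymerase III factor TFIIIC, stood at 0.17, 0.14 and 0.099 against -0.31, a difference of -0.44 (SE 0.080; limma unadjusted p = 0.00272, adjusted p = 0.389). orc1, a subunit of the origin recognition complex, differed by -0.42, with 6 low windows at 2573811 to 2575020 that averaged 0.081, 0.15 and 0.029 in WT and -0.48 in pob3D. The other genes of that rule, cup1, SPBC3E7.09, SPBC337.11, pgs1, erv41, SPBC31A8.02 and oxs1, differed by -0.34 to -0.41. The amo1D array was also below all WT arrays at sfc3 (-0.044), orc1 (-0.15), SPBC3E7.09 (-0.23), pgs1 (-0.17) and erv41 (0.11). It was not so at cup1, SPBC337.11 and oxs1. At SPBC31A8.02 the amo1D array, at -0.25, and the rix1E414K array, at -0.39, were both lower than pob3D, at -0.23.

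**Figure D4:**
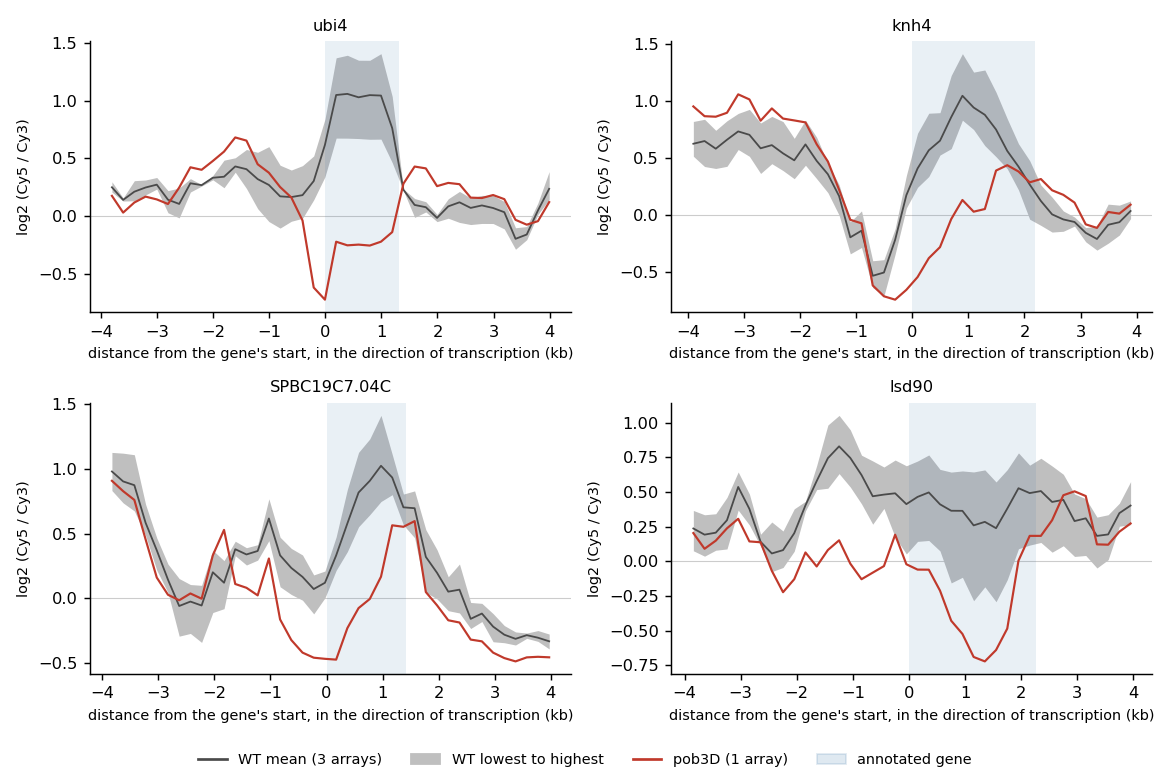
log2(Cy5/Cy3) in 200 bp windows around ubi4, knh4, SPBC19C7.04C and lsd90, against distance in kb from the gene's start in its direction of transcription; the grey line is the mean of the 3 WT arrays, the band their lowest to highest value, the red line pob3D and the shading the gene. Over most of each gene the pob3D line lies below the band, with mean differences of -1.19 at ubi4 and -0.63 at knh4.

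On the higher side the genes of smallest p lay in the arms, apart from SPNCRNA.369, a small noncoding RNA of the central core. That gene stood at -3.69, -3.44 and -3.48 in WT and -2.71 in pob3D (difference 0.83, SE 0.12), and the sign turned to -0.079 after normexp and -0.021 after quantile normalization. qcr10, a subunit of respiratory complex III, stood at 0.45, 0.44 and 0.22 against 0.87, a difference of 0.50 (SE 0.12) that lay in Cy5 (0.54, with Cy3 at 0.0042). aim19 stood at -0.047, 0.079 and -0.0057 against 0.50, and there the difference of 0.49 was mainly in Cy3 (-0.42, with Cy5 at 0.11). git5, the beta subunit of the G protein of glucose sensing, differed by 0.41 and lies in a run of 7 windows, 1463811 to 1465220, at 0.012, -0.037 and -0.056 in WT and 0.60 in pob3D. llp1, tam9, SPBC8D2.18C, pfd1, SPBC23G7.14 and vps71, the last a subunit of the Swr1 complex that deposits H2A.Z, differed by 0.31 to 0.39. Cy5 and Cy3 differed by 0.41 and 0.012 at SPBC8D2.18C and by 0.23 and -0.20 at llp1. At pfd1 they differed by 0.13 and -0.23, at tam9 by 0.048 and -0.35 and at vps71 by 0.036 and -0.31. SPBC23G7.14 was lower than the WT mean in both channels, by -0.24 in Cy5 and -0.58 in Cy3. The amo1D array was also above all WT arrays at SPNCRNA.369 (-3.04), qcr10 (0.46), aim19 (0.22), git5 (0.38), tam9 (0.32), pfd1 (-0.019) and SPBC23G7.14 (-0.088). It was not so at llp1, SPBC8D2.18C and vps71. The rix1E414K array was above all WT arrays at SPBC8D2.18C (-0.17), SPBC23G7.14 (-0.097) and vps71 (-0.096) and not at the others. Of the 13 genes at least 0.5 higher, 7 were the rRNA genes above, and the telomeric SPBPB2B2.18 (0.65), SPBCPT2R1.03 (0.63) and SPBPB2B2.19C (0.53) are read mainly by repeated probes.

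**Figure D5:**
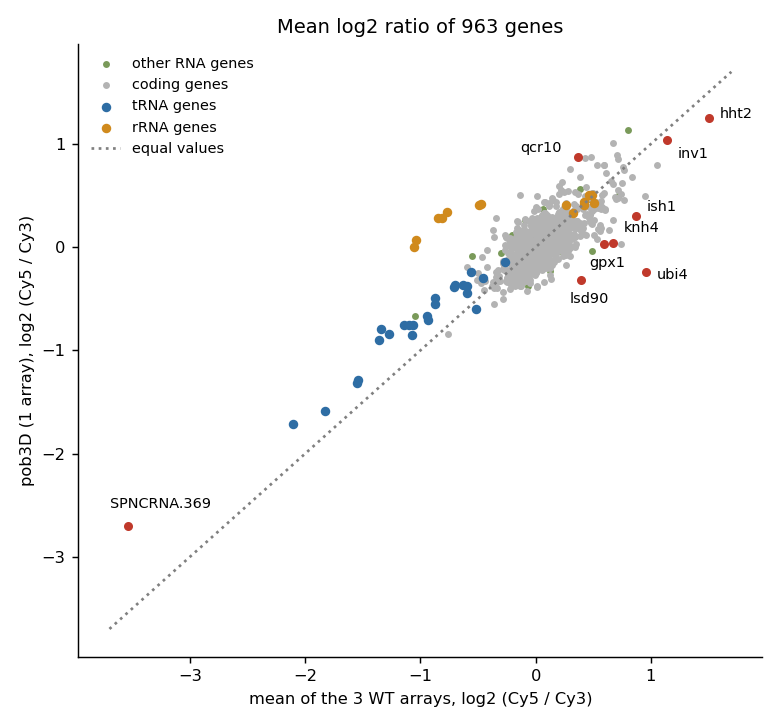
Mean log2(Cy5/Cy3) of each of 963 genes in pob3D (vertical axis) against the mean of the 3 WT arrays (horizontal axis), with tRNA and rRNA genes coloured, some named genes in red and a dotted line of equal values. ubi4 (-0.24 in pob3D) lies furthest below the line, the 7 rRNA genes at the left of their colour lie above it, and most coding genes lie close to it.

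The other gene lists are read beside all genes, whose median difference was -0.030. Medians ran from -0.21 for heterochromatin factor genes and -0.12 for chromatin assembly and elongation genes to 0.21 for Tf2 retrotransposons. Of 25 ribosomal protein genes 10 were above the WT range and 5 below, with a median of 0.0024. The genes rpl26 (0.29), rpp202 (0.28) and rps1002 (0.26) were the highest and rps21 (-0.23) the lowest. At rpp202 both channels were lower than in WT, by -0.30 in Cy5 and -0.62 in Cy3. The amo1D array was also above all WT arrays at rpl26 (0.41), rpp202 (0.13) and rps1002 (0.18), and not below them at rps21. Of 4 glycolytic genes 1 was above (pfk1, 0.11) and 1 below (fba1, -0.44). Both Tf2 retrotransposons, Tf2-9 and Tf2-10, differed from the WT mean by 0.21 and 0.20 but lay close to the highest WT array, with 0.80 in pob3D for both against 0.77 and 0.79 in WT replicate 1, and their median was -0.11 after loess. Of 6 genes for chromatin assembly and elongation, 5 were below, among them the Cnp1 chaperone hrp1 (-0.17), the HIR subunit slm9 (-0.17) and nap2 (-0.16), and the Paf1-complex gene prf1 was above (0.18). All 3 measured heterochromatin factor genes were below: amo1 (-0.28), which encodes a nuclear rim protein, clr1 (-0.21), a subunit of the SHREC histone deacetylase complex, and tas3 (-0.21), a subunit of the RITS silencing complex. The amo1D array was also below all WT arrays at clr1 (-0.19), tas3 (-0.075), hrp1 (-0.32) and slm9 (0.039). It was not below them at nap2, prf1 and amo1, the gene its own label names. The rix1E414K array was above all WT arrays at clr1, tas3 and amo1. Among coding genes of the arms at large, 356 of 873 were below all WT arrays (40.8%) and 218 above, so these small lists are read beside that share. The 3 meiotic genes (mei4, 0.12; spo5, 0.028; rec8, -0.16) and the 2 MBF genes (yox1, 0.13; cdc18, 0.027) gave small differences, and gal1, which lies in the subtelomere, gave 0.39.

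The highest WT peaks included the genes inv1 and nmt1, whose promoters are in wide use to drive other genes. They also included a run at 1365811 to 1366620, over most of the histone gene hht2 and only the edge of its neighbour hhf2. hht2, which encodes histone H3.2, stood at 1.59, 1.74 and 1.19 in WT and 1.25 in pob3D. Its H4 partner hhf2 was lower, at 0.75, 0.59 and 0.38 in WT, and differed by -0.19. inv1, the invertase gene that sucrose medium turns on, stood at 1.56, 1.13 and 0.73 against 1.04, and nmt1 at 1.33, 1.35 and 0.48 against 0.80. In all 3 of hht2, inv1 and nmt1 pob3D lay within the WT range. The plasmid's name points to inv1 and histone H3.2 sequence on it, and whether plasmid DNA adds to the signal of those probes was not tested. The peak of the extra sequence that was highest in the mean of WT replicates 1 and 2, 21601 to 22610, stood at 1.26, 1.41 and 0.74 against 0.99. The histone variant gene pht1 (H2A.Z) differed by 0.065. The patch over hrp1 stood at -0.18, -0.18 and -0.076 against -0.31, with 18 of 25 windows below the WT range. On the amo1D array this patch stood at -0.32, also below all WT arrays, and on the rix1E414K array at -0.027.

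Along coding genes of at least 1000 bp the average difference was small, and in the last 500 bp and upstream it was within the WT SD. Over 727 genes (718 for the middle) it was -0.046 (SD 0.014) in the first 500 bp and -0.066 (SD 0.0395) in the middle. It was -0.010 (SD 0.016) in the last 500 bp, 0.047 (SD 0.0275) in the 300 bp downstream and 0.016 (SD 0.078) in the 300 bp upstream. Against WT replicate 3 these differences were, in the same order, -0.032, -0.043, 0.0058, 0.040 and 0.0008. Array means in the middle of genes were 0.13, 0.062 and 0.062 in WT and 0.019 in pob3D. The 51 intergenic regions between convergent genes, where 2 transcripts end, averaged -0.014, 0.029 and -0.014 in WT and 0.15 in pob3D. That difference of 0.15 was larger than the WT SD of 0.025 and kept between 0.13 and 0.16 under the alternatives run. Tandem intergenic regions differed by 0.071 (SD 0.075, 274 regions) and divergent ones by 0.016 (SD 0.11, 185 regions). By window, 69 of 121 convergent intergenic windows were above all WT arrays (57.0%), with Cy5 0.088 over the WT mean (SD 0.10) and Cy3 at -0.094 (SD 0.034), and 0.034 and -0.11 against WT replicate 3. These windows averaged 0.0078, 0.11 and 0.10 in WT and 0.22 in pob3D. The amo1D array, at 0.19, was also above all 3 WT arrays there, and the rix1E414K array stood at -0.035. Among peaks, the 102 divergent intergenic windows stood at 0.61 in WT replicate 3 and 0.48 in pob3D, while the 312 coding windows stood at 0.55 and 0.56.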

How the data were processed

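H3-FLAG ChIP DNA (Cy5) and whole-cell extract DNA (Cy3) were amplified by random-primed PCR per the labels' protocols and hybridised to 2-colour Agilent 60mer arrays without dye swap. The deposited scanner files hold, per the file headers (Agilent Feature Extraction 12.0.3.1), background-subtracted and dye-normalized processed intensity for each channel. The deposited series table holds the Cy5/Cy3 ratio, a linear fold that matched the ratio of those processed intensities for all 43993 probes within a relative difference of 9.05e-09, and was not otherwise used. Control spots and spots flagged as outliers (0 to 19 per array here) were left out, log2(Cy5/Cy3) was computed from the deposited intensities, and each array was centred on its median.

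Probes were averaged in 200 bp windows and in genes, each with at least 2 probes. limma 3.58.1 (R 4.3.3) was fitted to 3 WT arrays and 1 pob3D array with Benjamini-Hochberg adjustment at 0.05; the residual spread comes from WT alone. The labels do not say whether WT arrays came from separate cultures, so their spread may be technical. Without any test, regions, lists and gene parts are described by means, medians and counts. Only 4 arrays limit the precision.

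The members, lists and regions were chosen with earlier results of these data known. Named genes were inv1, nmt1 and hht2, the 10 smallest unadjusted p per direction, up to 4 members per list by size of difference, the 5 runs of smallest p per direction and the 5 highest and lowest WT runs. The 0.5 limit for runs, the rDNA boundary, the promoters shown and the lower genes outside this rule were chosen after values were seen. Alternatives were normexp with offset 50, no background subtraction, keeping flagged spots, a filter on dim probes, MAD scaling, loess, quantile, other window widths, WT replicate 3 alone, each WT replicate left out and, added later, probes with 1 match in ASM294v3. The scanner files hold median in place of mean signals, so the background alternatives used medians.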

Additional observations from a re-analysis of the deposited data

How the results depend on the processing

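Of 446 alternative values of the main results, 405 stayed within the spread between WT arrays, or within 1.5 times for counts; in regions the direction held in 135 of 142 and in named genes in 678 of 699. Leaving out 1 WT replicate in turn gave 0 to 122 windows past the threshold, 122 of them without replicate 3, and 0 to 9 genes, 9 of them without replicate 2; no other setting gave any. The valley difference was 0.58 with MAD scaling, 0.24 after quantile normalization, 0.13 with probes of 1 match, 0.078 outside the regions, and 0.60 or 0.23 with the lowest 1% or 10% of windows. The slope difference was -0.35 with MAD scaling and -0.36, with peaks at -0.30, when windows were chosen on WT replicates 2 and 3 and set against replicate 1. After normexp the core gave 0.056, the mating-type interval 0.83, the extra sequence 0.55 and the hrp1 patch -0.24. The arms with tRNA surroundings then gave -0.043, heterochromatin factor genes -0.30 and the first 500 bp of genes -0.061. The core gave 0.48 without background subtraction. After quantile normalization the core gave -0.0008, the hrp1 patch -0.25 and tRNA genes -0.070. With well measured probes alone the mating-type interval gave 0.75. With probes of 1 match it gave 0.39, the subtelomere 0.70 and rRNA genes 0.028. After loess Tf2 elements gave -0.11 and chromatin assembly genes -0.069. Against WT replicate 3 alone the values were 0.47 for the mating-type interval, 0.36 for the subtelomere, -0.070 for chromosome III beyond the rDNA, 0.30 for the nmt1 patch, -0.23 for the hrp1 patch, -0.0074 for the arms with tRNA surroundings, 0.41 for tRNA genes, 0.25 for glycolytic, -0.20 for core stress, 0.057 for histone and -0.077 for chromatin assembly genes, and 0.0058 for the last 500 bp. The tRNA median ran from 0.23 to 0.42 with 1 WT replicate left out. Except where an alternative's construction shows it (fewer probes or arrays, or quantile normalization's shared lowest values), the cause was not tested. No paired analysis was possible because the pob3D array carries no replicate number and stands alone; its shared slide was handled by comparing it with WT replicate 3. The dim ChIP signal limits the core's value, and repeated probes, differences between WT slides and the single mutant array limit many of the others.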
